A study of Rattus norvegicus with 12 samples.

Results

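The genes described here are Myc and the factors that build ribosomes, in rat cardiac progenitor cells that were kept in suspension or plated for 2 h. The set is a list of 41 gene symbols, drawn up with earlier results of these data known, that cover transcription by RNA polymerase I, modification of pre-ribosomal RNA and assembly of the small and large subunits. Of these, 37 were found with 10 or more counts summed over the 12 libraries, out of 16924 genes in each count table. Dkc1, Bysl, Tsr1 and Rrp12 were not analysed here. All 37 passed the filter on low counts, so every gene found entered every test.

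The 4 groups held 3 libraries each. Cells were in suspension, on dishes coated with fibronectin, on dishes coated with laminin, or on dishes with no coating; fibronectin and laminin are extracellular matrix proteins that cells bind through integrins. All cells came from 1 clone of rat cardiac progenitor cells, which limits them as a model of the tissue, and the labels name no genetic change. They had been expanded with serum, leukemia inhibitory factor, basic fibroblast growth factor, erythropoietin and glutathione. The labelled protocol then gives seeding at low density and 2 h with 0.1% serum for all libraries, and does not describe how the suspension cells were handled. Fibronectin, laminin and no coating together are called attached below. Libraries 1, 2 and 3 of every group carried labelled batches 1, 2 and 3. Nothing in the labels says whether the libraries came from separate cultures, so the p-values measure the spread between these libraries, which may be partly technical.

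Each library held 15875160 to 20852160 gene counts. The 3 ribosomal RNA genes took 0.448% to 4.24% of the counts. Of 7 mesenchymal and cardiac progenitor markers, Vim (mean 5125 CPM, a gene's counts scaled to the library total), Col1a1 (1164 CPM), Col3a1 (350.0 CPM), Gata4 (88.4 CPM) and Gata6 (64.2 CPM) were well above 0, Kit had a mean of 3.09 CPM, and Ly6a had 1 count over all libraries. Summed CPM of 6 cardiomyocyte markers was 1.57 to 2.05 in suspension and 3.92 to 6.32 in attached cells; nearly all of it was Tnnt2 (1.57 to 6.16 CPM), while Nkx2-5 and Myh7 had 0 counts, Myh6 had 1, Ryr2 5 and Actn2 8. Summed CPM of 6 blood markers was 35.8 to 38.4 in suspension and 50.7 to 65.2 in attached cells; most of it was Cd14 (33.3 to 60.9 CPM), while Ptprc had 3 counts, Cd68 and Laptm5 had means of 0.960 and 2.67 CPM, and Hba-a1 and Hbb were at 0. Sums for 4 endothelial markers (99.7 to 183 CPM in suspension, 101 to 144 CPM in attached cells) and 3 smooth muscle markers (164 to 224 and 180 to 227 CPM) overlapped between suspension and attached cells. Nearly all of the endothelial sum was Flt1 (99.1 to 182 CPM), while Pecam1 and Tek had means of 0.274 and 0.419 CPM and Cdh5 had 10 counts. Most of the smooth muscle sum was Tagln (155 to 220 CPM), while Myh11 had a mean of 8.17 CPM and Cnn1 had 30 counts. The part of these markers in the results below was not tested. The attached libraries of batch 3 stood apart from the other attached libraries, and results are therefore also given without batch 3. In bulk RNA, fewer cells with a transcript and less transcript per cell cannot be told apart.

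MYC is a transcription factor that pairs with MAX and binds the E-box CACGTG. Many ribosome assembly genes are among its known targets, and Myc itself is known to be induced by growth factors. RNA polymerase I makes the long precursor of ribosomal RNA in the nucleolus, small nucleolar ribonucleoproteins (snoRNPs) modify it, and separate sets of factors fold and cut it into the small and the large subunit.

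Promoter sequence is shown first because it bears on the link between these genes and MYC. RefSeq (GRCr8) gives windows of 300 bases, from 250 before to 50 after the annotated start, for 34 of the 37 genes; Myc, Wdr43 and Bop1 had no entry. CACGTG, a palindrome that reads the same on both strands and was searched without reference to any other motif, occurred in 11 of the 34 windows (32.4%). It occurred in 7.08% of 27457 genes with a window, in 6.42% of all 33469 windows of this length, and in 9.60% of the 9179 windowed genes with 10 or more counts in these cells. The 11 genes were Fbl, Gnl3, Mybbp1a, Wdr75, Utp20, Pno1, Ltv1, Pes1, Nop2, Rrp1 and Noc3l. The stretches around the motif are printed 5′ to 3′ on the gene's strand, CACGTG in capitals, for Pes1 (chr14:83074269-83074328, plus strand), Utp20 (chr7:25102944-25103003, minus strand) and Pno1 (chr14:95819897-95819929, minus strand), which are described by library below, and for Gnl3 (chr16:6219777-6219834, minus strand) and Mybbp1a (chr10:57555275-57555463, plus strand), chosen after their values were seen. Gnl3 is shown for its difference in batch 3 and Mybbp1a for its pair of motifs.
Pes1: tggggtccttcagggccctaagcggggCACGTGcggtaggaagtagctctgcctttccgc
Utp20: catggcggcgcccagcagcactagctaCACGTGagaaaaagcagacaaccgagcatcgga
Pno1: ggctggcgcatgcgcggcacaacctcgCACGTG
Gnl3: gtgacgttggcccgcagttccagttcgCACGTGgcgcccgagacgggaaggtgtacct
Mybbp1a: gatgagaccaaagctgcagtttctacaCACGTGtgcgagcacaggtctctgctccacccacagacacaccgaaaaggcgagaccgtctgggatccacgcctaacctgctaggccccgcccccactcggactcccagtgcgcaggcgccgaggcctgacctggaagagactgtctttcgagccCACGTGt
In Pes1 the motif began 50 bases before the annotated start, in Utp20 127 bases before and in Gnl3 25 bases before. In Pno1 it began at base 2, with the annotated start counted as base 1. Mybbp1a held one motif 156 bases before the start and another across it. A match in these letters is a description of the sequence and not evidence of binding.

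Myc was highest on fibronectin. It had 193, 191 and 202 CPM on fibronectin (libraries 1 to 3), 126, 124 and 147 CPM on laminin, 131, 141 and 154 CPM with no coating, and 127, 184 and 161 CPM in suspension. Each of the 3 fibronectin libraries lay above every library of the other groups. The means were 195 ± 5.86 CPM on fibronectin, 157 ± 28.4 in suspension, 142 ± 11.5 with no coating and 132 ± 12.7 on laminin (SD, n = 3 each), and suspension, no coating and laminin overlapped.

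**Figure D1:**
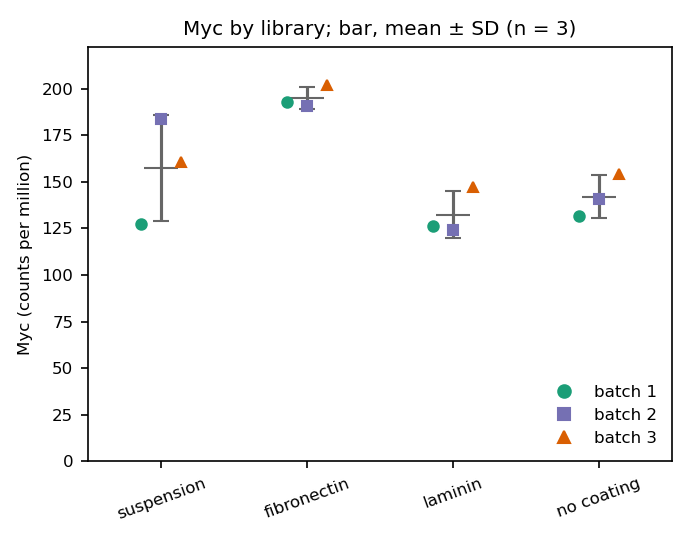
Myc in CPM (vertical axis, from 0) in each of the 12 libraries, by group, with a symbol for each batch and bars for the mean ± SD. The 3 fibronectin libraries lie between 191 and 202 CPM, above the highest suspension library at 184 CPM, and the suspension libraries spread from 127 to 184 CPM.

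The ordering of Myc by coating was the same within each batch, but its test depended on the tool. The laminin to fibronectin log2 ratio of CPM was -0.61, -0.62 and -0.46 in batches 1, 2 and 3, and the fibronectin to no coating log2 ratio was 0.55, 0.44 and 0.39. The fitted laminin minus fibronectin difference in Myc was -0.60 ± 0.12 on the log2 scale (SE), with an adjusted p of 0.182 over all 10020 genes tested (edgeR quasi-likelihood test, Benjamini-Hochberg). With DESeq2 the same difference was -0.60 ± 0.14 with an adjusted p of 0.00778, and over all 15 alternatives the adjusted p of Myc in this comparison ran from 0.00778 to 0.894. Fibronectin exceeded no coating by 0.48 ± 0.12 for Myc (edgeR adjusted p = 0.406, range 0.0986 to 0.9998 over the alternatives). Against suspension, Myc differed by 0.34 ± 0.12 on fibronectin (edgeR adjusted p = 0.105), by -0.25 ± 0.12 on laminin (adjusted p = 0.169) and by -0.13 ± 0.12 with no coating (adjusted p = 0.466). With batch as a replicate block the fibronectin difference of Myc was 0.35 ± 0.11 and passed at an adjusted p of 0.0394. Suspension 1 and 2, the lowest and highest suspension libraries, moved these calls: without suspension 2 the fibronectin difference of Myc passed (adjusted p = 0.0404) and the no coating difference became 0.01, and without suspension 1 the laminin difference passed (adjusted p = 0.0259). Within batches, the fibronectin to suspension log2 ratio of Myc was 0.60, 0.05 and 0.33, the laminin to suspension ratio -0.01, -0.57 and -0.13, and the no coating to suspension ratio 0.05, -0.39 and -0.06.

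Against suspension, 1 of the 37 genes, Pes1 on laminin, was called at an adjusted p under 0.05 in the fit without a batch term. The 3 comparisons with suspension share the same control libraries and are therefore not independent. On fibronectin 0 of 37 passed, where 9.67% of all 10020 genes did (6.61% higher and 3.06% lower); 2 genes were higher and 0 lower at an unadjusted p under 0.05 in edgeR (16.8% and 10.1% of all genes), and DESeq2 called 0 (13.2% of all genes). On laminin 1 of 37 was called, Pes1, where 19.0% of all genes were (12.1% higher and 6.96% lower) and DESeq2 called the same gene (22.2% of all genes). At an unadjusted p under 0.05, 2 were higher and 1 lower on laminin (20.7% and 15.0% of all genes). With no coating 0 of 37 passed, where 12.6% of all genes did (8.48% higher and 4.10% lower); 3 were higher and 0 lower at an unadjusted p under 0.05 (19.0% and 13.0% of all genes), and DESeq2 called 0 (16.6% of all genes). The median log2 difference of the 37 genes was -0.09 on fibronectin, -0.13 on laminin and -0.08 with no coating, beside 0.00, -0.01 and 0.00 over all genes tested.

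Summed over the 37 genes, each of the 9 attached libraries lay below the suspension library of its own batch. The sums were 5860, 6892 and 6431 CPM in suspension, 5229, 6390 and 5318 CPM on fibronectin, 5394, 6501 and 5034 CPM on laminin, and 5491, 6245 and 4969 CPM with no coating. Abundant genes weigh most in these sums: Ncl alone had 883 CPM in suspension 3 and 397 CPM in laminin 3. In batch 1, 30 of 37 genes were lower on fibronectin than in suspension, 26 on laminin and 27 with no coating. In batch 2 these numbers were 26, 24 and 25, and in batch 3 they were 22, 21 and 19. The within-batch medians for fibronectin were -0.18, -0.12 and -0.08 on the log2 scale in batches 1, 2 and 3. For laminin they were -0.12, -0.09 and -0.13, and with no coating -0.07, -0.08 and -0.03. These are counts of single library pairs with no test, and the share of all genes lower in the same pairs was not counted. The ratios use library totals, which include ribosomal RNA. It took 0.809% in suspension 1 and 4.24% in fibronectin 1, but 2.30% in suspension 2 and 1.63% in fibronectin 2. Fitted on library totals, the median log2 difference over all genes was -0.03 on fibronectin, -0.01 on laminin and -0.01 with no coating.

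**Figure D2:**
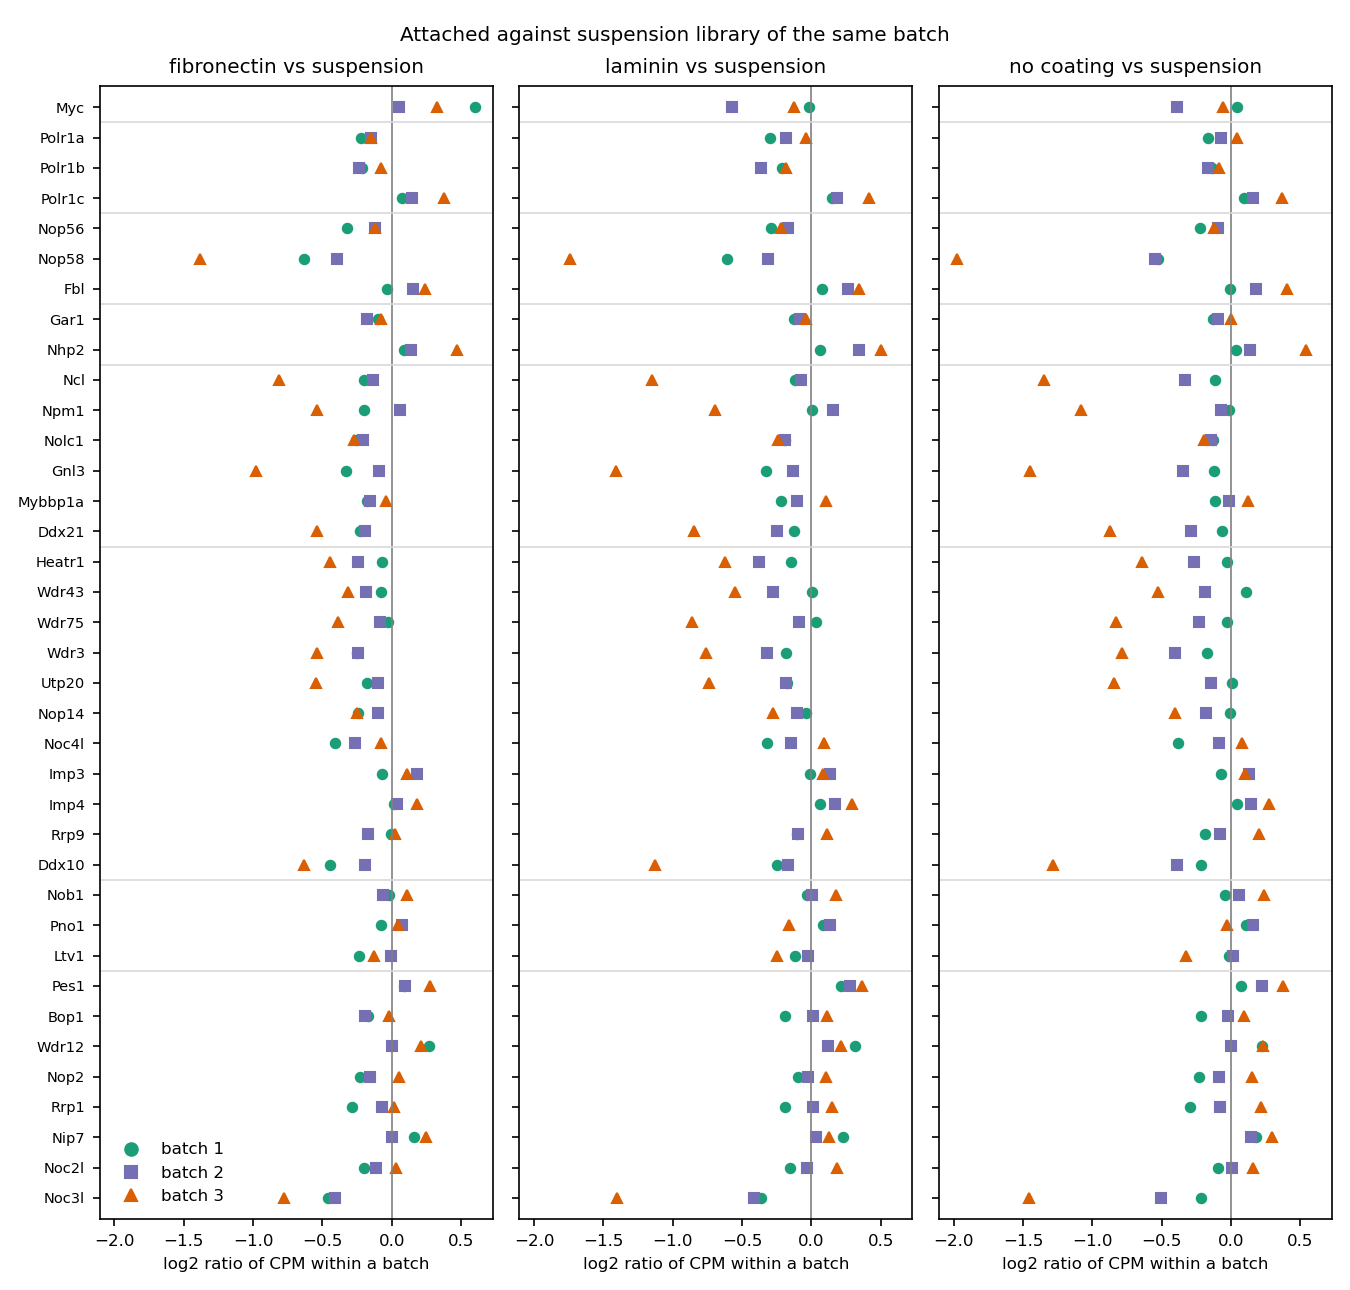
Log2 ratio of CPM, attached library over the suspension library of the same batch (horizontal axes), for the 37 genes (rows, grouped by role), each point 1 gene in 1 batch, in 1 panel per surface. Most points lie just below 0 in batches 1 and 2, while batch 3 spreads widely, down to -1.38 on fibronectin, -1.74 on laminin and -1.98 with no coating.

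With batch as a replicate block, more genes of the set passed in both directions. On fibronectin 4 rose (Myc, Polr1c, Nhp2 and Pes1) and 3 fell (Nop56, Nop58 and Nolc1), where 16.6% of all genes rose and 12.1% fell. On laminin 6 rose (Polr1c, Fbl, Nhp2, Imp4, Pes1 and Wdr12) and 9 fell (Polr1a, Polr1b, Nop56, Nop58, Nolc1, Ddx21, Heatr1, Wdr3 and Noc3l), where 22.4% and 20.8% did. With no coating 6 rose (Polr1c, Fbl, Nhp2, Imp4, Pes1 and Nip7) and 5 fell (Nop58, Nolc1, Wdr3, Ddx10 and Noc3l), where 20.1% and 18.7% did. Pes1, Polr1c and Nhp2 were in all 3 lists of rises, and Nop58 and Nolc1 in all 3 lists of falls. Nop58 fell by 0.83 on fibronectin, 0.93 on laminin and 1.03 with no coating on the log2 scale in this blocked fit. The block takes the shift of a batch as equal in suspension and attached cells. For Nop58, Ddx21, Heatr1, Wdr3, Ddx10 and Noc3l the batch 3 shift differed between them in the test of shifts described below. Their blocked falls therefore rest partly on batch 3. Of the blocked rises, Polr1c, Nhp2, Pes1, Fbl and Imp4 were also called higher in the attached libraries of batch 3, as described below. Fbl, for example, had 153 CPM in no coating 1 and 154 in suspension 1, but 212 in no coating 3 and 160 in suspension 3. The test of shifts did not call these rising genes. A blocked fit without batch 3 was not run. Without batch 3, and with no block, 0 of 37 passed on fibronectin, laminin or no coating, where 4.30%, 8.55% and 5.17% of all genes were higher and 4.95%, 10.3% and 6.81% lower. At an unadjusted p under 0.05 that fit had 0 higher and 3 lower on fibronectin, 1 and 4 on laminin, and 0 and 3 with no coating. Over all genes tested these shares were 12.6% and 13.9%, 16.8% and 18.2%, and 13.4% and 14.9%.

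No member was called between coatings in the edgeR fit. Laminin against fibronectin gave 0 of 37, where 0.150% of all genes passed; 1 gene, Myc, was lower at an unadjusted p under 0.05 (2.14% of all genes), and DESeq2 called Myc alone (0.449% of all genes). Fibronectin against no coating gave 0 of 37, where 0.180% of all genes passed; 1 gene was higher at an unadjusted p under 0.05 (1.97% of all genes), and DESeq2 called 0 (0.529% of all genes). Laminin against no coating gave 0 of 37 and 0 of all genes, with 0 members at an unadjusted p under 0.05 and 0 called by DESeq2. With the block 0 of 37 passed between coatings, where 0.409%, 0.469% and 0 of all genes did, and without batch 3 0 of 37, where 0.119%, 0.110% and 0 did. The median log2 difference of the 37 genes was -0.02, 0.00 and -0.01 in these comparisons.

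Among the RNA polymerase I subunits, the catalytic subunits and Polr1c, which RNA polymerase III shares, moved in opposite directions on laminin in the blocked fit. Polr1a, the largest subunit, had 126, 131 and 130 CPM in suspension, 108, 118 and 117 on fibronectin, 103, 115 and 127 on laminin, and 112, 125 and 134 with no coating. Polr1b, the second largest subunit, had 74.5, 96.5 and 83.1 CPM in suspension, 64.3, 81.9 and 78.6 on fibronectin, 64.3, 75.0 and 73.1 on laminin, and 67.6, 86.0 and 78.2 with no coating. On fibronectin Polr1a lay below all suspension libraries, while Polr1b overlapped them in every group. The laminin differences in the blocked fit were -0.17 ± 0.05 for Polr1a (edgeR adjusted p = 0.0277), -0.25 ± 0.06 for Polr1b (0.00835) and 0.25 ± 0.06 for Polr1c (0.0129); without the block the adjusted p were 0.156, 0.171 and 0.0916. Polr1c spanned 42.2 to 42.9 CPM in suspension and 44.4 to 57.2 CPM in the 9 attached libraries, which did not overlap.

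The box C/D snoRNP, which places methyl groups on ribosomal RNA, had one core protein that differed widely and 2 that differed little. Nop58 had 354, 417 and 386 CPM in suspension, 228, 317 and 148 on fibronectin, 232, 336 and 116 on laminin, and 246, 285 and 97.9 with no coating. All 9 attached libraries lay below all suspension libraries for Nop58, and the 3 lowest were those of batch 3. The unblocked differences of Nop58 were -0.70 ± 0.44, -0.75 ± 0.44 and -0.85 ± 0.44 on fibronectin, laminin and no coating, with edgeR adjusted p of 0.332, 0.243 and 0.209. Without batch 3 they were -0.46 ± 0.19, -0.43 ± 0.19 and -0.51 ± 0.19, with adjusted p of 0.162, 0.142 and 0.118. Nop56, the partner of Nop58 in the core, had 234, 265 and 253 CPM in suspension, 187, 243 and 232 on fibronectin, 191, 235 and 218 on laminin, and 201, 248 and 232 with no coating. Each attached library of Nop56 lay below the suspension library of its batch. Fbl, the methyltransferase itself, spanned 154 to 168 CPM in suspension and 150 to 212 CPM in attached cells.

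In the box H/ACA snoRNP, which converts uridines to pseudouridines, Nhp2 and Gar1 are structural proteins. Nhp2 had 64.7, 74.6 and 69.3 CPM in suspension, 69.0, 82.1 and 95.8 on fibronectin, 67.6, 94.5 and 98.0 on laminin, and 66.2, 82.0 and 101 with no coating. Each attached library of Nhp2 lay above its own suspension library, and the largest gaps were in batch 3. Gar1 had 50.4, 55.9 and 51.5 CPM in suspension, 47.0, 49.3 and 48.9 on fibronectin, 46.1, 52.7 and 50.3 on laminin, and 46.0, 52.4 and 51.6 with no coating. Gar1 thus stayed between 46.0 and 55.9 CPM over the 12 libraries, and it was called against suspension neither with nor without the block.

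Among the nucleolar chaperones, helicase and regulators, the same batch stood out. Ncl (nucleolin), an abundant nucleolar RNA-binding protein, had 806, 949 and 883 CPM in suspension, 702, 865 and 504 on fibronectin, 742, 901 and 397 on laminin, and 745, 754 and 347 with no coating. Npm1 (nucleophosmin), a chaperone of ribosomal proteins and histones, had 454, 544 and 512 CPM in suspension, 396, 568 and 352 on fibronectin, 456, 606 and 316 on laminin, and 450, 518 and 242 with no coating. For both genes the 3 attached libraries of batch 3 lay below all 9 other libraries, while batches 1 and 2 overlapped suspension. Npm1 has processed copies in the genome, so its counts are uncertain where reads could be shared with them. Nolc1, a chaperone of snoRNPs, spanned 375 to 491 CPM in suspension and 314 to 444 CPM in attached cells, and each attached library lay below its own suspension library. Mybbp1a, a nucleolar regulator that binds transcription factors, spanned 348 to 424 CPM in suspension and 299 to 428 CPM in attached cells. The RNA helicase Ddx21 spanned 237 to 293 and 152 to 257 CPM, and in the blocked fit it fell on laminin by 0.41 on the log2 scale (edgeR adjusted p = 0.0443). Gnl3 is described with batch 3 below.

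The small subunit processome, which assembles on the nascent precursor, supplied 11 of the 37 genes, and Wdr43 and Utp20 had the highest mean CPM. Wdr43 had 201, 249 and 226 CPM in suspension, 191, 219 and 182 on fibronectin, 202, 206 and 154 on laminin, and 217, 219 and 157 with no coating. Utp20, a large scaffold protein, had 132, 163 and 159 CPM in suspension, 117, 152 and 109 on fibronectin, 117, 144 and 95.7 on laminin, and 133, 148 and 88.5 with no coating. The attached libraries of batch 3 were the lowest for both, and those of batches 1 and 2 overlapped suspension. In the blocked fit Heatr1 and Wdr3 fell on laminin by 0.39 and 0.43 on the log2 scale, Wdr3 and the helicase Ddx10 fell with no coating by 0.44 and 0.61, and Imp4 rose on laminin and with no coating by 0.18 and 0.17. Wdr3 spanned 102 to 118 CPM in suspension and 60.9 to 99.8 CPM in attached cells, and Ddx10 spanned 72.7 to 80.8 and 30.5 to 71.8 CPM, so neither overlapped. Heatr1 (108 to 144 and 85.2 to 121 CPM) and Imp4, which holds the U3 snoRNP together with Imp3 (78.7 to 81.2 and 79.7 to 99.4 CPM), did overlap. Wdr75 (76.4 to 92.0 and 45.0 to 86.8 CPM), Nop14 (109 to 126 and 89.3 to 117), Noc4l (28.6 to 29.7 and 22.4 to 31.1), Imp3 (43.6 to 48.9 and 43.6 to 52.9) and Rrp9, a protein of the U3 snoRNP (55.5 to 73.9 and 48.8 to 75.2), overlapped as well. These last 5 genes passed in no comparison with suspension, with or without the block.

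The late small subunit factors Nob1, Pno1 and Ltv1 passed in no comparison with suspension. Nob1, the nuclease that makes the final cut of 18S ribosomal RNA, had 265, 278 and 269 CPM in suspension, 262, 266 and 291 on fibronectin, 260, 278 and 305 on laminin, and 257, 290 and 317 with no coating. Pno1, which escorts Nob1, had 106, 122 and 114 CPM in suspension, 101, 128 and 117 on fibronectin, 113, 134 and 102 on laminin, and 115, 136 and 111 with no coating. In both genes attached and suspension values overlapped, as they did for Ltv1, an export factor of the small subunit (73.1 to 75.1 CPM in suspension and 59.9 to 75.0 CPM in attached cells).

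Of the 8 large subunit factors, Pes1 was higher on all 3 surfaces in the blocked fit. It belongs to the PeBoW complex with Bop1 and Wdr12, which is needed to process the large subunit precursor. Pes1 had 172, 182 and 177 CPM in suspension, 183, 194 and 215 on fibronectin, 199, 220 and 228 on laminin, and 180, 212 and 230 with no coating. Fibronectin and laminin libraries lay above all suspension libraries, and the no coating libraries overlapped them. The laminin difference of Pes1 was 0.29 ± 0.09 (edgeR adjusted p = 0.0418), and 0.29 ± 0.05 with the block (adjusted p = 0.00396). That unblocked call was lost in 10 of 15 alternatives, among them library size only, RLE normalization, no filter, the 2 groups alone, leaving out batch 3, and leaving out suspension 1, 2 or 3 or laminin 2 or 3; the adjusted p ran from 0.00396 to 0.116. Bop1 spanned 108 to 127 CPM in suspension and 93.2 to 131 CPM in attached cells, and Wdr12 spanned 40.4 to 50.9 and 47.2 to 55.3 CPM. Noc2l, a partner of Noc3l in large subunit assembly, had 155, 178 and 160 CPM in suspension, 135, 164 and 163 on fibronectin, 139, 174 and 181 on laminin, and 146, 179 and 178 with no coating. Its groups overlapped, whereas Noc3l spanned 62.7 to 73.6 CPM in suspension and 23.3 to 55.3 CPM in attached cells and did not. The rRNA methyltransferase Nop2 spanned 113 to 132 CPM in suspension and 96.0 to 131 CPM in attached cells, Rrp1 spanned 74.3 to 76.2 and 60.6 to 86.3 CPM, and Nip7 spanned 75.0 to 88.3 and 84.0 to 102 CPM. These 3 overlapped, and of them Nip7 alone passed with the block, higher by 0.22 with no coating (edgeR adjusted p = 0.0286).

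**Figure D3:**
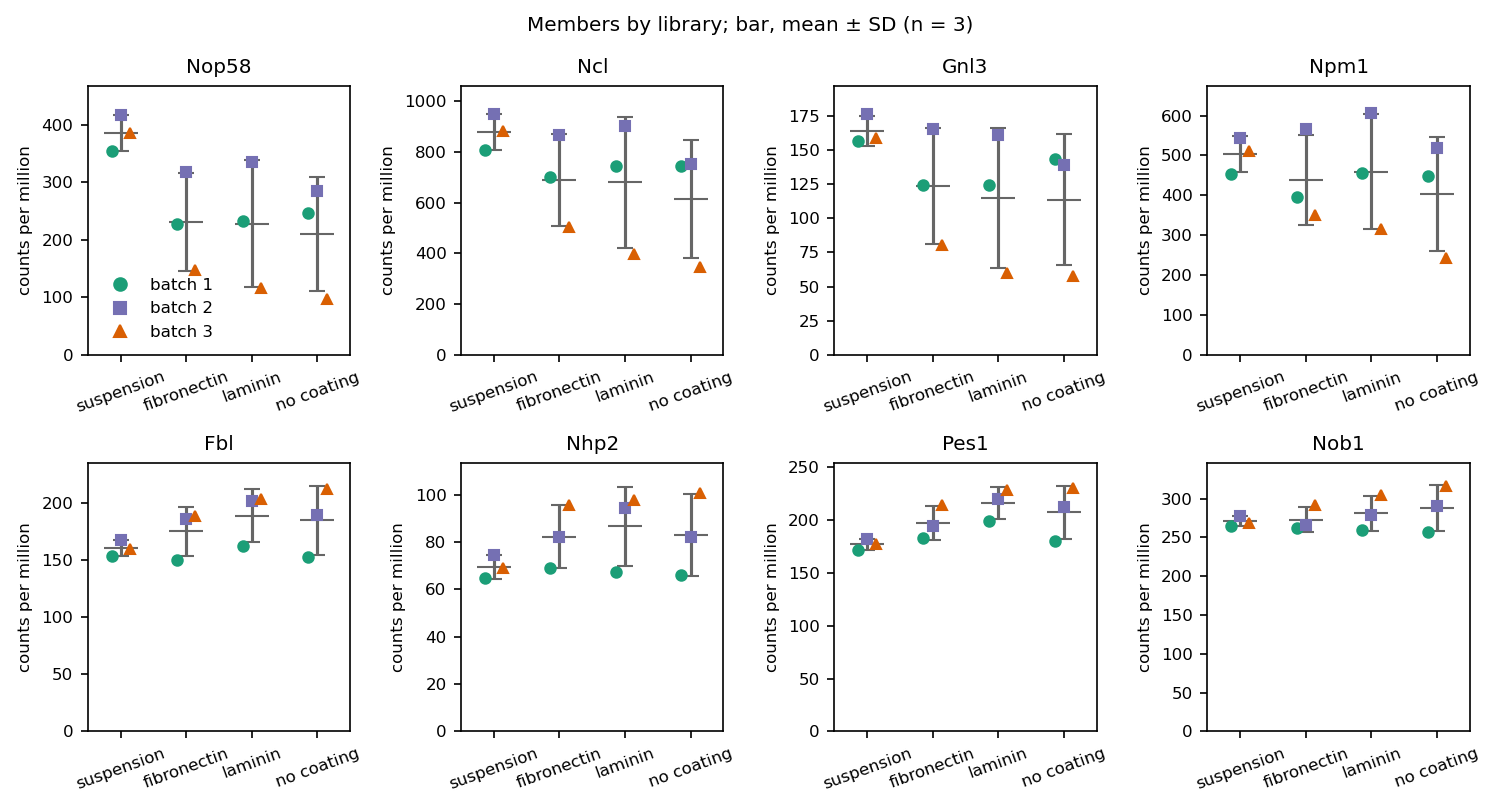
CPM (vertical axes, from 0) in each of the 12 libraries for Nop58, Ncl, Gnl3 and Npm1, and for Fbl, Nhp2, Pes1 and Nob1, by group, with a symbol for each batch and bars for the mean ± SD. In the first 4 genes the attached libraries of batch 3 are the lowest points, for example 97.9 to 148 CPM for Nop58, while in the other 4 they are the highest point of each attached group.

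The attached cells of batch 3 divided the set. The 9 attached libraries were fitted with coating and labelled batch as terms, and batch 3 was compared with the mean of batches 1 and 2. In this comparison 14 of 37 genes were higher and 15 lower, and 8 did not pass. Over all 9975 genes tested, 53.9% passed, 25.3% higher and 28.6% lower, so a large part of the transcriptome moved with this batch. The number of higher genes rested on single libraries: it was 7 without laminin 3 and 7 without no coating 3 (1407 and 1409 of 10039 genes) and 9 without fibronectin 2 (18.1% of all genes), while 12 to 15 genes were lower whichever library was left out. The median log2 difference was 0.03 for the 37 genes and 0.03 for all genes.

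The largest falls exceeded the largest rise. Nop58 was lower by -1.23 ± 0.10 on the log2 scale (edgeR adjusted p = 1.56e-05), Gnl3 by -1.17 ± 0.10, Ncl by -0.97 ± 0.09, Noc3l by -0.93 ± 0.13, Ddx10 by -0.81 ± 0.12, Npm1 by -0.76 ± 0.09 and Wdr75 by -0.70 ± 0.08. Wdr3, Ddx21, Utp20, Wdr43, Heatr1, Nop14, Ltv1 and Pno1 fell by 0.54 down to 0.18. Nhp2 rose most, by 0.31 ± 0.05 (edgeR adjusted p = 0.000788). The other rises, Noc4l, Polr1c, Rrp1, Rrp9, Bop1, Fbl, Mybbp1a, Nop2, Imp4, Pes1, Nob1, Imp3 and Noc2l, ran from 0.11 to 0.25. Myc (0.11 ± 0.04, adjusted p = 0.0557), Polr1a, Polr1b, Nop56, Gar1, Nolc1, Wdr12 and Nip7 did not pass.

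By role, falls were most numerous in the small subunit processome and among the nucleolar proteins. Each role holds few genes, and over all genes tested 25.3% rose and 28.6% fell. Of the 6 nucleolar proteins 4 fell (Ncl, Npm1, Gnl3 and Ddx21) and 1 rose (Mybbp1a). Of the 11 processome genes 7 fell and 4 rose, and of the 3 late small subunit genes 2 fell and 1 rose. Of the 8 large subunit genes 5 rose (Pes1, Bop1, Nop2, Rrp1 and Noc2l) and 1 fell (Noc3l). This did not extend to 47 large subunit factors outside the set, of which 9 rose and 24 fell. In the box C/D snoRNP Fbl rose, Nop58 fell and Nop56 did not pass, Nhp2 rose in the H/ACA pair, and Polr1c rose among the 3 polymerase subunits.

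Gnl3 and Noc3l show the pattern by library and were chosen after their values were seen. Gnl3, a nucleolar GTPase known from stem cells, had 156, 176 and 158 CPM in suspension, 124, 166 and 80.6 on fibronectin, 124, 161 and 59.6 on laminin, and 144, 139 and 58.0 with no coating. Noc3l had 62.7, 73.6 and 63.8 CPM in suspension, 45.6, 55.3 and 37.2 on fibronectin, 48.7, 55.3 and 24.2 on laminin, and 54.0, 51.9 and 23.3 with no coating. In both genes the 3 attached libraries of batch 3 lay below every other library, and suspension 3 lay within the range of suspension 1 and 2. For 12 of the 37 genes all 3 attached libraries of batch 3 lay below all 6 attached libraries of batches 1 and 2, and for 6 genes all lay above. These 18 compare with 40.7% of all genes tested by the same criterion, 2026 of 9975 below and 2034 above.

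A test added after the data were seen asked whether batch 3 differed in attached cells by another amount than in suspension. It rests on 1 suspension library per batch, so its error comes from the attached libraries. Of the 37 genes 12 had a lower shift in attached cells and 0 a higher one, where 15.7% of all genes tested were lower and 1.17% higher (edgeR, adjusted p). The difference of shifts was -1.23 ± 0.19 for Nop58 (adjusted p = 0.00303), -1.09 ± 0.19 for Gnl3 (0.00403), -0.98 ± 0.17 for Ncl (0.00409) and -0.80 ± 0.18 for Npm1 (0.0127). At an unadjusted p under 0.05, 5 genes were higher and 12 lower (9.42% and 22.6% of all genes). Without laminin 3 the number lower was 6 (10.4% of all genes). Nop58, Gnl3, Ncl, Npm1, Utp20 and Heatr1 passed in all 14 alternatives run, whereas Wdr43 lost its call in 9, Ddx10 in 7 and Noc3l in 6. Suspension and attachment, and any step of handling that differed between them in batch 3, cannot be told apart. Ribosomal RNA took 1.14% of the counts in suspension 3 and 1.25% to 2.55% in the attached libraries of batch 3, inside the range of the other batches, and with those genes left out 12 genes of the set were higher and 15 lower in batch 3 (21.4% and 29.5% of all genes).

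**Figure D4:**
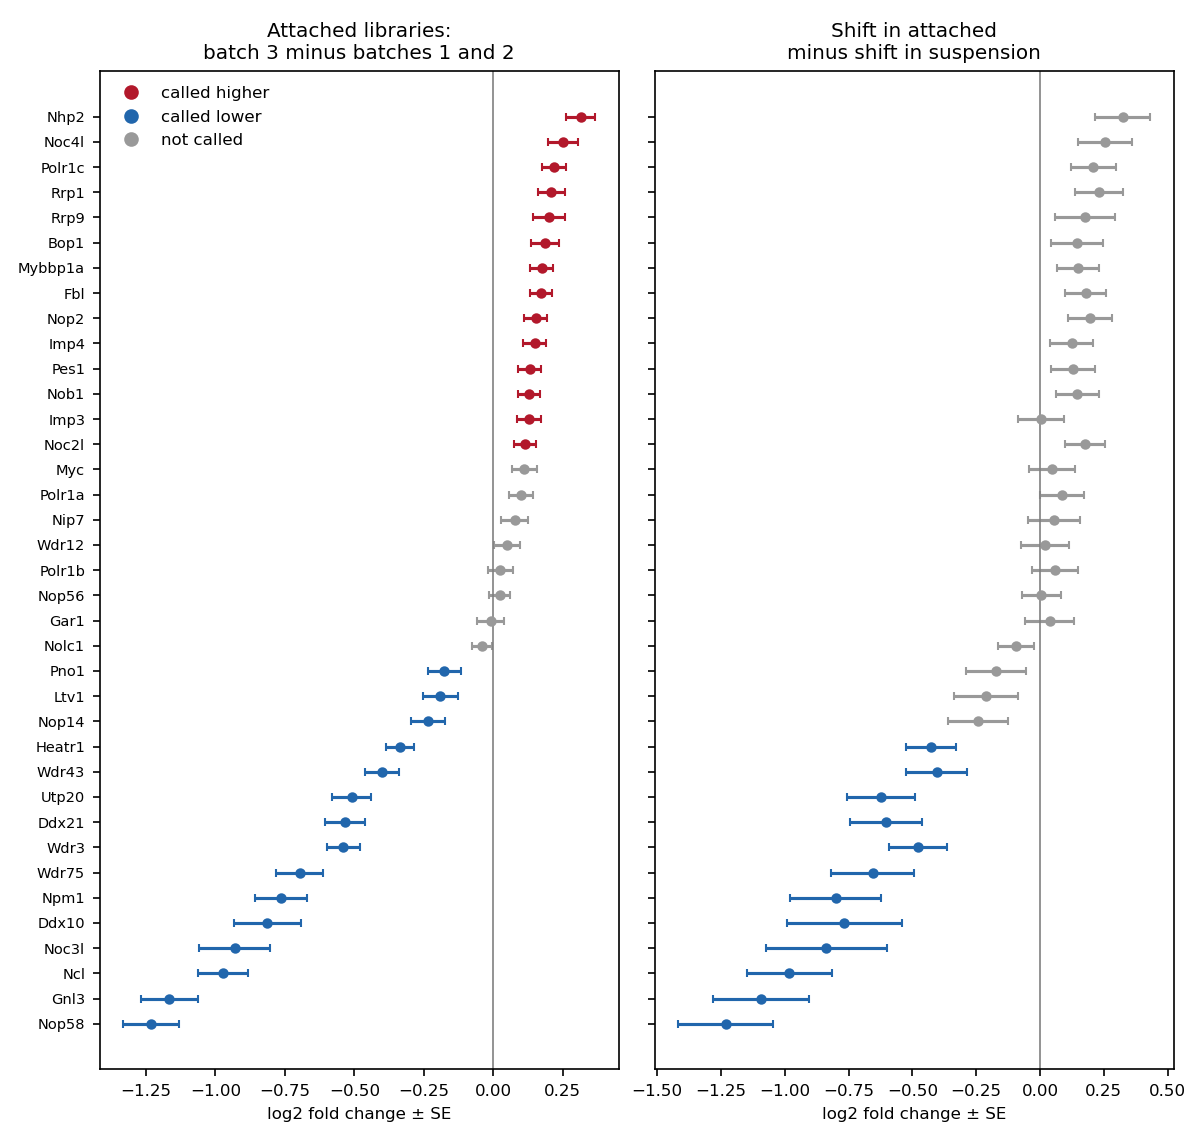
Left, log2 difference of batch 3 against batches 1 and 2 in the 9 attached libraries, and right, that shift minus the shift in suspension (horizontal axes, bars are SE), for the 37 genes ordered by the left value, coloured where the adjusted p is under 0.05. The left values run from -1.23 for Nop58 to 0.31 for Nhp2, with 15 genes called lower and 14 higher, and on the right 12 are called lower and 0 higher.

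Some of these genes carry genes for small nucleolar RNAs inside them. The RefSeq gene table places 5 snoRNA genes inside Nop56, 5 inside Nop58, 3 inside Ncl, 3 inside Gnl3 and 3 inside Wdr43, and none inside the other 32. Of these 5 genes 4 were lower and 0 higher in the attached libraries of batch 3, with a median log2 difference of -0.97, and Nop56 (0.02) did not pass. Over all genes tested 28.6% were lower and 25.3% higher. Of the other 32 genes 14 were higher and 11 lower, with a median of 0.09. The feature was examined with these values known, and the difference between the 5 and the 32 was not tested. Genes outside the set that hold snoRNA genes were not examined. CACGTG was found in both directions: of the 11 genes with CACGTG 5 were higher and 6 lower, and of the 23 windowed genes without it 8 were higher and 8 lower. Median GC content of the promoter windows was 59.0% for 13 genes called higher and 59.3% for 14 called lower.

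Around the 37 genes, 150 further genes of ribosome assembly and the MYC network were tested, from lists drawn up with earlier results of these data known. On fibronectin 5 of these rose and 1 fell, on laminin 12 rose and 7 fell, and with no coating 7 rose and 4 fell. Over all genes tested 6.61%, 12.1% and 8.48% rose on fibronectin, laminin and no coating, and 3.06%, 6.96% and 4.10% fell. In the MYC network 2, 3 and 2 of 12 tested genes rose on fibronectin, laminin and no coating, and 0, 2 and 0 fell. Mxd4 and Mnt, which pair with MAX and oppose MYC, rose on all 3 surfaces: Mxd4 by 0.88 ± 0.22, 0.97 ± 0.22 and 0.80 ± 0.22 and Mnt by 0.72 ± 0.16, 0.63 ± 0.16 and 0.57 ± 0.16, on fibronectin, laminin and no coating (log2, SE). Mxd1, another antagonist, rose by 0.34 ± 0.07 on laminin, where Mlx fell by 0.35 and the coactivator Trrap by 0.36. Max, the partner of MYC, differed by 0.04, 0.04 and 0.14 from suspension on fibronectin, laminin and no coating, and was not called; without laminin 1 its laminin difference was -0.02.

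Among MYC targets outside ribosome assembly, 1, 5 and 1 of 31 tested genes rose on fibronectin, laminin and no coating, and 0, 1 and 0 fell. Beside these, 6.61%, 12.1% and 8.48% of all genes tested rose and 3.06%, 6.96% and 4.10% fell. Eif4ebp1, an inhibitor of cap-dependent translation, rose by 0.29, 0.27 and 0.25 (SE 0.07 each). On laminin Impdh2, of guanine nucleotide synthesis, rose by 0.30 ± 0.08 and Ctps1, of CTP synthesis, fell by 0.41 on the log2 scale. Nme1 and Nme2, which were also called on laminin, are near-identical neighbours whose reads may be shared, and their values are uncertain.

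Few of the other polymerase I genes and assembly factors passed, where 9.67%, 19.0% and 12.6% of all genes did on fibronectin, laminin and no coating. Of 17 further polymerase I genes 0 passed on fibronectin, and on laminin and with no coating Polr1d rose by 0.23 and 0.30 and Polr1g fell by 0.56 and 0.45. Ubtf, the polymerase I activator, differed by -0.06, 0.04 and 0.00 and was not called; its no coating difference was negative under other scalings. Of 32 further small subunit genes Utp23 rose by 0.41, 0.42 and 0.34 on fibronectin, laminin and no coating, Ddx47 rose by 0.28 and 0.27 on laminin and no coating, and the rRNA methylase Dimt1 fell by 0.59 and 0.52 there. Of 47 further large subunit genes Nop53 rose by 0.44, 0.55 and 0.44, Rrp8 fell by 0.51, 0.76 and 0.64, and Rrs1 fell by 0.51 on laminin and 0.39 with no coating. The 11 further snoRNP genes gave 0 calls in each comparison with suspension.

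These calls outside the set depended on single libraries. Of the 36 calls, leaving out suspension 1 ended 11, suspension 2 ended 29 and suspension 3 ended 29, and leaving out batch 3 ended 18. Of the 6 fibronectin calls, leaving out fibronectin 1, 2 or 3 ended 6, 1 and 6. Of the 19 laminin calls, leaving out laminin 1, 2 or 3 ended 6, 9 and 10, and of the 11 no coating calls, leaving out no coating 1, 2 or 3 ended 5, 7 and 10. With the replicate block 0 of the 36 were lost. The calls of Nop53 and Rrp8 on laminin passed in all alternatives run. In the coating comparisons 0 of the 150 genes passed. In the attached libraries of batch 3, 9 of the 32 small subunit genes rose and 16 fell, 9 of the 47 large subunit genes rose and 24 fell, and 18 of the 31 MYC targets rose and 7 fell, where 25.3% of all genes rose and 28.6% fell.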

How the data were processed

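Total RNA libraries from 12 samples were made with a stranded kit, per the labels' protocols. The authors deposited whole-number read counts per gene, keyed by Entrez ID; the build is rn 4 per the submitters' processing notes. The aligner, counter, annotation and strand setting were stated in none of the sources used here, so overlapping or antisense genes may share reads. RefSeq (GRCr8) gave symbols to 16761 of 16924 IDs; the 163 others held 0.301% to 0.357% of counts and stayed in library sizes and tests.

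CPM use library totals. Differences were tested with edgeR 4.0.16 (R 4.3.3; TMM factors 0.962 to 1.03, its expression filter, quasi-likelihood fit of 4 groups on 12 libraries, 8 residual degrees of freedom), adjusted by Benjamini-Hochberg over 10020 genes at 0.05; SE is the difference over the root of F. The batch comparison, and the test of attached against suspension shifts, each had 4 residual degrees of freedom.

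Pairing comes from the labels, which give same-numbered libraries a common batch. Deviations from group means had a median correlation of 0.409 in 18 same-batch pairs (lowest 0.036) and -0.124 in 36 others. Same-batch pairs of attached libraries ran from 0.514 to 0.853. Those that held a suspension library ran from 0.036 to 0.304, and those with suspension 3 from 0.036 to 0.068, so pairing with suspension was weaker. Alternatives were other scalings, DESeq2 1.42.0, other filters, the replicate block, the 2 groups alone, no batch 3, each library left out and, added after seeing the data, no rRNA genes and the test of shifts.

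The members and lists were chosen with earlier results of these data known. Values are given by library for Myc, the 2 members of highest mean CPM in each role and any member called between coatings; from wider lists, for the 2 called rises and 2 called falls with the smallest p, plus Max and Ubtf. Total counts of 15875160 to 20852160 per library set the counting precision.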

Additional observations from a re-analysis of the deposited data

Results flagged for a closer look

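In 12 genes of the set the shift of batch 3 against batches 1 and 2 differed between attached and suspension cells. They were called by the test of that difference (edgeR, adjusted p under the threshold of 0.05). In each of the 12 the attached cells moved lower. Over all genes tested, 15.7% had a lower shift in attached cells and 1.17% a higher one, so calls outside the set were mostly lower too. The difference of shifts, attached minus suspension on the log2 scale, was -1.23 for Nop58, -1.09 for Gnl3, -0.98 for Ncl, -0.84 for Noc3l, -0.80 for Npm1 and -0.77 for Ddx10. It was -0.66 for Wdr75, -0.62 for Utp20, -0.60 for Ddx21, -0.48 for Wdr3, -0.43 for Heatr1 and -0.41 for Wdr43. The adjusted p ran from 0.00303 for Nop58 to 0.0452 for Wdr43. Of 14 alternatives, Wdr43 lost its call in 9 (library size only, RLE, and without fibronectin 2 or any laminin or no coating library), Ddx10 in 7 (RLE, and without fibronectin 2, laminin 1, 2 or 3, or no coating 2 or 3) and Noc3l in 6 (the same libraries as Ddx10). Wdr75, Ddx21 and Wdr3 lost it in 1, without laminin 3, and the other 6 genes in 0. Suspension had 1 library in each batch, and the cause of the difference was not tested.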

How the results depend on the processing

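Counts here are of the 37 genes. With the replicate block, 4 were higher and 3 lower on fibronectin, 6 and 9 on laminin, and 6 and 5 with no coating, against 0, 1 and 0 without it. Over all genes tested the block gave 16.6% higher and 12.1% lower on fibronectin, 22.4% and 20.8% on laminin, and 20.1% and 18.7% with no coating. Without the block these shares were 6.61% and 3.06%, 12.1% and 6.96%, and 8.48% and 4.10%. The block changed no call between coatings. The 1 laminin rise (Pes1) became 0 by library size only, RLE, no filter, the 2 groups alone and without batch 3. DESeq2 called 1 gene lower on laminin than fibronectin (Myc). Leaving out 1 library gave 0 to 1 higher in each comparison with suspension, 0 to 1 lower on laminin, and 0 in the other directions and between coatings. For batch 3 in attached cells it gave 7 to 16 higher (7 without laminin 3 or no coating 3, 9 without fibronectin 2) and 12 to 15 lower. Of 435 refits of those 29 calls, 50 were lost and 0 reversed. The added test of shifts gave 6 to 15 lower and 0 to 2 higher with 1 library left out, and 1 higher by library size only. Over all genes tested it gave 10.4% to 23.3% lower and 0.198% to 6.86% higher with 1 library left out, and 3.79% higher by library size only. The sign was followed across alternatives only for called genes, for members called with the block, and for Myc, Max and Ubtf. Max and Ubtf are outside the 37 genes. Among the differences followed, 3 small ones reversed, and 0 of them was called. Ubtf with no coating was -0.0135 by library size only, -0.0171 with RLE, -0.0172 with DESeq2, -0.0072 without a filter, -0.0037 with the 2 groups alone, -0.0227 without batch 3, and -0.0211 to 0.0225 with 1 library left out. With 1 library left out, Max on laminin ran from -0.0161 to 0.0883 and Myc with no coating from -0.2759 to 0.0104. The cause of these changes was not tested. Each group had 3 libraries, the batch fit had 4 residual degrees of freedom, and suspension had 1 library per batch.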
